A study of Mus musculus with 4 samples.

Results

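Peaks 6 to 6.5 kb wide on chromosomes 1 to 19 were taken from 2 deposited ATAC-seq peak lists of mouse hair follicle stem cells (HFSC). There were 6461 of them among 441022 autosomal peaks in the Irx5KO list, out of 486180 entries in all, and 6798 among 452761 in the WT list, out of 499794. Width was the end minus the start of each entry, and the peaks were chosen by width alone, from 6000 bp to under 6500 bp, so width is described here without a test. The comparison classes of 4 to 5.5 kb and 7 to 8.5 kb likewise leave out their upper limit. ATAC-seq uses the transposase Tn5 to cut and tag DNA that is open in chromatin. The 4 samples were 2 replicates of genotype Irx5KO and 2 of genotype WT, all sorted as Ly-6A/E-, CD34+ and CD45f+ cells. A list covers the pair of replicates of its genotype, so the spread between replicates is not known and the genotypes were not tested against each other. The labels give neither the Irx5 allele nor the age, and do not say which protein CD45f is. Shares carry 95% Wilson intervals and differences between width classes 95% Newcombe intervals, which cover counting error only. Neighbouring peaks are not independent, so these intervals are too narrow by an amount that was not measured.

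The follicle's bulge houses HFSC, which leave their resting state to renew the hair, and Irx5 is one of the Iroquois genes, whose products bind DNA through a homeodomain. A regulatory element such as an enhancer or promoter usually gives an ATAC-seq peak much narrower than 1 kb, and the median peak here was 410 bp wide in Irx5KO and 390 bp in WT. Much of the mouse genome consists of interspersed repeats, among them L1 retrotransposons, whose full-length copies are several kb long and resemble each other so closely that a short read can fit many of them. No repeat annotation and no genome sequence were used here, so whether these peaks lie on repeats was not tested. At the HFSC identity genes, peaks of any width lay within 1000 bp of a gene end at 21 of 24 genes in Irx5KO and 20 of 24 in WT, beside 82% and 79.7% of all coding genes. Sox9, Lhx2, Krt15, Cd34 and Lgr5 had such peaks in both lists, Runx1, Trp63 and Gata3 had none, and Ly6a, the gene of the marker sorted against, had 4 in each list. Peaks further inside a gene, for instance at an annotated start within its span, were not counted here.

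A few annotated gene starts lay inside the 6 kb peaks, and these give the DNA letters found there. The RefSeq promoter table for GRCm38.p6, the assembly of mm10, holds 300 bases per promoter, 250 before the gene start and 50 after it. Of 31396 autosomal promoters, 31 lay whole within a 6 kb peak of Irx5KO (0.0987% of all) and 33 within one of WT (0.105%). Over both lists these were 48 promoters of 43 genes. Joining promoters that shared at least 25 strings of 16 bases, and keeping groups spread over at least 3 chromosomes, left 2 sequence families with 11 genes. The families were sought after the data had been seen.

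Family 1 held 8 promoters of 7 genes on chromosomes 5, 10, 12, 13 and 15. They are shown because genes on different chromosomes carried nearly the same letters at nearly the same place in a peak. The gene is Fut8, which encodes the enzyme that adds core fucose to N-glycans, in 2 of the 8 promoters, and a long non-coding RNA gene in the other 6. Both Fut8 starts are annotated starts within the gene span and not its outer end. Printed below are 6 of the 8, without 4930431F10Rik and the first Fut8 start. In the 120-base stretches that follow, written 5′ to 3′ along the gene's strand, capitals mark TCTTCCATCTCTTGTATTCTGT, the longest run common to all 8.
4930431F12Rik, chr5:44966131-44966250, plus strand: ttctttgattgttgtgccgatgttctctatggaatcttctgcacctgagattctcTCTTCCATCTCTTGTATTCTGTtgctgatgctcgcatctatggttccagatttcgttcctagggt
4930435F18Rik, chr13:116838129-116838248, minus strand: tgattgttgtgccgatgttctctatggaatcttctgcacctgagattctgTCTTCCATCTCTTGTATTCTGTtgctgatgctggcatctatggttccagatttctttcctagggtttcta
4930504C09Rik, chr15:69270463-69270582, plus strand: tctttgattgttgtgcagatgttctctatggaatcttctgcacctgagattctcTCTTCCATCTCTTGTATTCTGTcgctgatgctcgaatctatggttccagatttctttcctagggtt
Gm29904, chr15:61288351-61288470, plus strand: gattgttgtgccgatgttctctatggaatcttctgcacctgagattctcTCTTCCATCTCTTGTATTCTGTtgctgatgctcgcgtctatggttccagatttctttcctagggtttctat
Gm40691, chr10:74137186-74137305, minus strand: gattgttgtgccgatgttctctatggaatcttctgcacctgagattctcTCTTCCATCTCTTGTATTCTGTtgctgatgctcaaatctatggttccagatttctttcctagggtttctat
Fut8, chr12:77410038-77410157, plus strand: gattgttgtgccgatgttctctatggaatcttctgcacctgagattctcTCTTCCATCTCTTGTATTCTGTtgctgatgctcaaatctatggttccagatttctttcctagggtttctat
Aligned on that run without gaps, pairs of family 1 promoters were identical at 92.2% to 100% of 72 to 299 bases, with a median of 95.9% over 28 pairs. On either strand the run was found in 14 of the 31396 promoters (0.0446%), and all 14 lay whole within a peak of some width in both lists. Among all autosomal promoters, 36.9% lay whole within a peak in Irx5KO and 30.5% in WT. The 14 promoters include the 8 that defined the run, which were taken from 6 kb peaks and so had to lie in one in at least 1 list.

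The gene starts of family 1 stood at a near-constant place within their peaks. Measured along transcription, the edge ahead of the start was 737 to 1169 bp away in both lists, with medians of 864 bp in Irx5KO and 899 bp in WT. Transcription was therefore annotated as running out of the peak across its nearer edge. For 4930435F18Rik both lists gave the identical peak of 6140 bp, with 957 bp ahead of the start and 5182 bp behind it. For 4930431F12Rik the peak was 6180 bp wide in Irx5KO and 6140 bp in WT, with 909 bp ahead in both. At the second Fut8 start the edge ahead was 1169 bp away in both lists, whereas the edge behind was 2350 bp away in Irx5KO and 5200 bp in WT, so this peak was 3520 bp wide in Irx5KO and a 6 kb peak in WT only. Another 7 promoters shared at least 25 strings with family 1 but lay outside 6 kb peaks. All 7 lay within a peak in each list, and their edge ahead was at a median of 754 bp in both, with 1 of them, 4930521O11Rik, inside a peak of 135890 bp in Irx5KO and 201850 bp in WT. Smn1, which encodes a subunit of the complex that assembles spliceosomal particles, was one of these. Its peak was 5900 bp wide in Irx5KO and 5880 bp in WT, with 515 and 505 bp ahead of the start. Gm31630 had a peak of 5980 bp in Irx5KO and 5970 bp in WT, just under the width limit, with 754 bp ahead in both. Others of the 7 lay in much narrower peaks, with 2 in Irx5KO and 3 in WT under 4000 bp. The peak of 4930519L02Rik was 1520 bp wide in Irx5KO and 1510 bp in WT.

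Family 2 held 4 promoters of long non-coding RNA genes on chromosomes 1, 3, 9 and 15. They are shown because their starts lay against the very edge of the peak, unlike family 1. Capitals mark the longest run common to all 4, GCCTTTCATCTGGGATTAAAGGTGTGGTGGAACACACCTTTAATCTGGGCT, and 3 of the 4 are printed.
Gm36456, chr1:188608542-188608661, minus strand: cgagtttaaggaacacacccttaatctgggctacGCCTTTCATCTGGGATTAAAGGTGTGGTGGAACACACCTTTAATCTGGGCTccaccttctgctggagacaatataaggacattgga
Gm52608, chr3:69854457-69854576, plus strand: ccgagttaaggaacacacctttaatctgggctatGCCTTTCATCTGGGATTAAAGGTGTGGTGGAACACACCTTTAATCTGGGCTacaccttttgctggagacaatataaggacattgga
LOC105246046, chr15:102602862-102602981, plus strand: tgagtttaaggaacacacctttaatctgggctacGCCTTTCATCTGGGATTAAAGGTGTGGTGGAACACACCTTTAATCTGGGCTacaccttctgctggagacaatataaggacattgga
Pairs of family 2 were identical at 72.4% to 97.9% of bases in the same ungapped alignment. The edge ahead of the start was 98 to 208 bp away in Irx5KO and 98 to 182 bp in WT, and the peaks were 6390 to 6500 bp and 6400 to 6450 bp wide. The run occurred in 9 of all promoters (0.0287%), each within a peak of some width in both lists, as the 4 that defined the run had to be in at least 1 list. Of 26 further promoters that shared at least 25 strings with family 2, 13 lay whole within Irx5KO peaks under 4000 bp and 10 within wider ones. The other 3 did not lie whole within any peak, and whether a peak covered part of them was not examined. In WT these counts were 11, 11 and 4, so family 2 sequence was also found in narrow peaks. Several of the promoters in wider peaks are not separate cases. Those of Gm20765, Gm21293, Gm21304, Gm21312, Gm4340 and Gm8764 lay in 1 peak of chromosome 10, 62010 bp wide in Irx5KO and 63890 bp in WT.

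**Figure D1:**
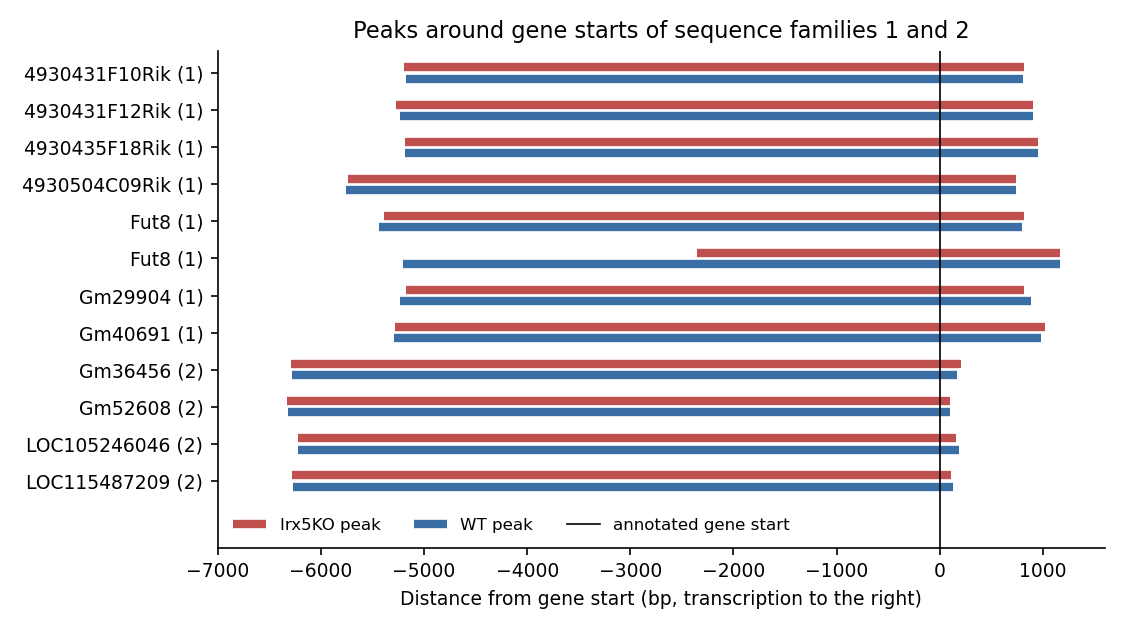
Peaks of the Irx5KO (red) and WT (blue) lists around the annotated gene starts of family 1 and family 2, with distance from the start in bp on the horizontal axis, transcription to the right, and the family in brackets. In family 1 the edge ahead of the start lay 737 to 1169 bp away and in family 2 98 to 208 bp away, and the Fut8 start with 1169 bp ahead had a 3520 bp peak in Irx5KO.

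Gene starts whose promoter lay whole within a 6 kb peak, the families included, had the edge ahead near more often than the edge behind. The promoter reaches further behind the start than ahead of it, so this choice lets a start lie closer to the edge ahead. It tilts the following counts towards the edge ahead, by an amount that was not measured. In Irx5KO the edge ahead of the start was within 1500 bp for 18 of 31 starts and the edge behind for 4, and in WT these were 18 and 5 of 33. The families made up 10 of the 18 in each list, and without them the counts were 8 and 4 of 21 in Irx5KO and 8 and 5 of 23 in WT. Lsm8, a gene of the ring of proteins that binds U6 RNA, had 405 bp ahead and 5794 bp behind in Irx5KO, and 425 and 5794 bp in WT. For Slc24a3, which encodes a sodium-calcium-potassium exchanger, the values were 109 and 6310 bp in Irx5KO and 79 and 6290 bp in WT. Tbc1d23, whose product tethers vesicles at the Golgi, had 480 bp ahead in both lists. The Slc24a3 and Tbc1d23 starts are further annotated starts within the gene span and not its outer end, unlike that of Lsm8. Gm42031, a long non-coding RNA gene, was placed the other way round, with 5923 bp ahead and 406 bp behind in Irx5KO. Promoters within 6 kb peaks held a median of 47.3% G or C in either list and 4 CpG sites, against 53.0% and 7 over all autosomal promoters. Those within peaks of 4 to 5.5 kb had 47.0% and 3 in Irx5KO and 46.0% and 3 in WT, so the lower content was found in both width classes. With 31 and 33 promoters, several from gene copies, no difference between these classes is drawn from these medians.

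The width class stood out in both lists and held 2 maxima, with smaller ones above its upper limit. The 6461 and 6798 peaks compare with 1584 and 1713 peaks of 5.5 to 6 kb, and with 2328 and 2423 of 6.5 to 7 kb. In steps of 20 bp the first maximum lay at 6120 to 6139 bp in Irx5KO, with 414 peaks, and at 6140 to 6159 bp in WT, with 428. The second lay at 6340 to 6359 bp in both lists, with 344 and 338 peaks. Between them the counts fell to 184 and 199 at 6240 to 6259 bp. Smaller maxima followed outside the class, with 190 and 195 peaks at 6560 to 6579 bp and 120 and 113 at 6760 to 6779 bp. At 6500 to 6519 bp there were 143 and 148, and at 6700 to 6719 bp 73 and 88. At the limits nothing changed abruptly, with 66 and 60 peaks of 5990 bp against 72 and 59 of 6000 bp, and 81 and 90 of 6490 bp against 69 and 82 of 6500 bp. The 6 kb peaks that held family 1 promoters were 6000 to 6480 bp wide, and those that held family 2 promoters 6390 to 6450 bp. The 6 kb peaks made up 1.465% of autosomal peaks in Irx5KO and 1.501% in WT, but 10.2% and 10.5% of the autosomal bp covered by peaks.

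**Figure D2:**
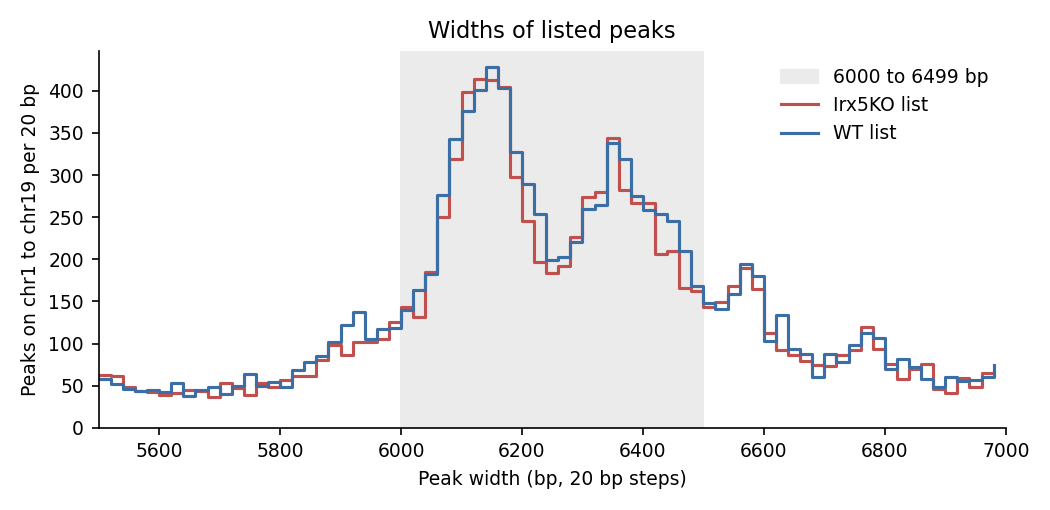
Number of autosomal peaks per 20 bp of width, from 5500 to 7000 bp, in the Irx5KO and WT lists, with the class of 6 to 6.5 kb shaded. Both lists have maxima near 6140 and 6340 bp and a dip to 184 and 199 peaks at 6240 to 6259 bp. Smaller maxima lie above the class at 6560 to 6579 bp and 6760 to 6779 bp.

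Most 6 kb peaks had a close match in the list of the other genotype. Each of the 6461 and 6798 peaks overlapped a peak of the other list by at least 1 bp, as did each of the 4726 and 4840 peaks of 4 to 5.5 kb, against 77.4% of all Irx5KO peaks and 73.0% of all WT peaks. With a reciprocal overlap of at least 90%, where each peak covers that share of the other, 92.7% (92.05 to 93.3) of 6 kb peaks matched in Irx5KO and 88.6% (87.8 to 89.35) in WT. Of all autosomal peaks 29.3% and 28.6% did. Among peaks of 4 to 5.5 kb the shares were 59.7% and 58.8%, lower by 33.0 points (31.5 to 34.55) and 29.8 points (28.2 to 31.35). Against peaks of 7 to 8.5 kb the difference was 15.9 points (14.1 to 17.8) and 14.7 points (12.8 to 16.6), and at a reciprocal overlap of 50% the difference from peaks of 4 to 5.5 kb was 7.36 and 6.925 points. The best-matching peak was itself 6 to 6.5 kb wide for 5590 peaks, which is 86.5% of the Irx5KO set and 82.2% of the WT set. For the other Irx5KO peaks the WT match was above the width class in 551 cases and below it in 320. For the other WT peaks the Irx5KO match was above it in 329 cases and below it in 879.

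Edges coincided to within a few steps of the 10 bp grid on which the borders lie. Start and end both fell within 50 bp of those of a peak in the other list for 68.9% (67.7 to 70.0) of 6 kb peaks in Irx5KO and 65.7% (64.6 to 66.8) in WT. Over all autosomal peaks these shares were 31.4% and 30.5%. For peaks of 4 to 5.5 kb the shares were 40.8% and 40.1%, lower by 28.0 points (26.2 to 29.8) and 25.6 points (23.8 to 27.4). Against peaks of 7 to 8.5 kb the difference was 14.2 points in both lists, and with a tolerance of 10 bp it was 9.64 and 8.76 points against the narrower class. Among peaks matched reciprocally by at least 50%, the median shift was 10 bp at the start and 10 bp at the end in the 6 kb class, and 20 bp at each in the class of 4 to 5.5 kb. Exactly the same borders were found for 430 peaks. A single edge within 50 bp was kept by 25.9% in Irx5KO and 27.7% in WT, and neither edge by 4.16% and 4.62%. The remaining 70 Irx5KO and 136 WT peaks had no reciprocal match of 50%. Where both lists had a 6 kb peak with a reciprocal overlap of 90%, in 5587 pairs, the WT peak was wider in 51.2%, the Irx5KO peak in 35.3%, and the widths were equal in 13.5%. In 2692 such pairs of 4 to 5.5 kb the shares were 51.2%, 34.3% and 14.6%, so WT peaks were more often the wider ones in both classes.

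**Figure D3:**
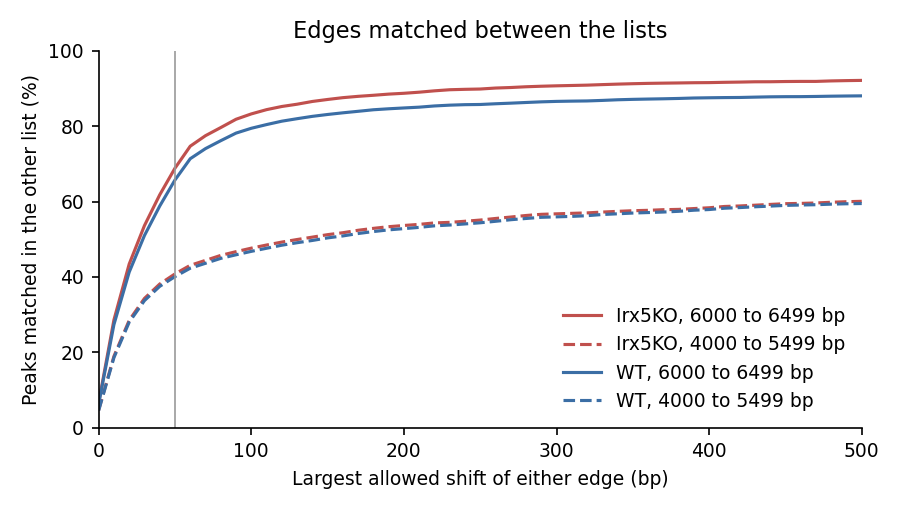
Share of peaks whose start and end both lie within a given distance of the edges of a peak in the other list, for 6 kb peaks (solid) and peaks of 4 to 5.5 kb (dashed), with the 50 bp tolerance as a grey line. At 50 bp the 6 kb peaks reach 68.9% in Irx5KO and 65.7% in WT, and the other class 40.8% and 40.1%.

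Summits, the position the authors give as the highest point of a peak, gathered near the ends of 6 kb peaks. A summit lay in the outermost 10% at either end in 40.4% (39.25 to 41.6) of 6 kb peaks in Irx5KO and 29.1% (28.0 to 30.2) in WT. Over all autosomal peaks, most of them narrow, the shares were 4.02% and 3.83%. Among peaks of 4 to 5.5 kb they were 19.15% and 15.1%, lower by 21.3 points (19.6 to 22.9) and 14.0 points (12.5 to 15.4). Against peaks of 7 to 8.5 kb, with 27.0% and 23.2%, the difference was 13.4 points (11.2 to 15.6) and 5.94 points (3.91 to 7.90). The outermost 10% covers more bp in a wider peak. Within a fixed 500 bp of an edge, a measure added after seeing the data, the shares were 32.0% in Irx5KO and 21.65% in WT, against 21.6% and 17.1% in peaks of 4 to 5.5 kb, a difference of 10.4 points (8.71 to 12.0) and 4.525 points (3.07 to 5.96). The median distance from summit to nearest edge was 845 bp against 1085 bp in Irx5KO, but 1175 bp against 1165 bp in WT. Both ends were used alike, with 1285 summits in the first 10% and 1328 in the last in Irx5KO, and 981 and 997 in WT. The fullest 100 bp step of distance to the nearest edge was 300 to 399 bp in both lists, with 695 and 541 peaks. In peaks of 4 to 5.5 kb it was 400 to 499 bp in Irx5KO, with 334 peaks, and also 300 to 399 bp in WT, with 271. The middle 20% of the width held 11.5% of summits in Irx5KO and 14.5% in WT, against 19.8% and 20.2% in the class of 4 to 5.5 kb.

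Between the ends the summits fell at preferred places that mirrored each other. In Irx5KO, 4.43% of summits lay at 35% to 40% of the width and 5.185% at 60% to 65%, whereas the steps from 40% to 45% and from 55% to 60% held 2.46% and 2.18%. In WT these values were 5.55% and 6.002%, against 2.99% and 3.21%. A further pair of places was at 25% to 30% and 70% to 75%, with 3.90% and 4.32% in Irx5KO and 4.40% and 4.74% in WT. In the next steps outward, 20% to 25% and 75% to 80%, 2.14% and 2.12% were found in Irx5KO and 2.68% and 2.59% in WT. Peaks of 4 to 5.5 kb held 3.92% to 5.97% per step from 20% to 80% of the width in Irx5KO and 4.67% to 6.28% in WT. Their class spans a broader range of widths, in which places at a fixed number of bp from an edge would blur. No such comb was seen there, but its absence cannot be told apart from that blurring. The preferred places in 6 kb peaks were noticed in the histogram and carry no test.

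**Figure D4:**
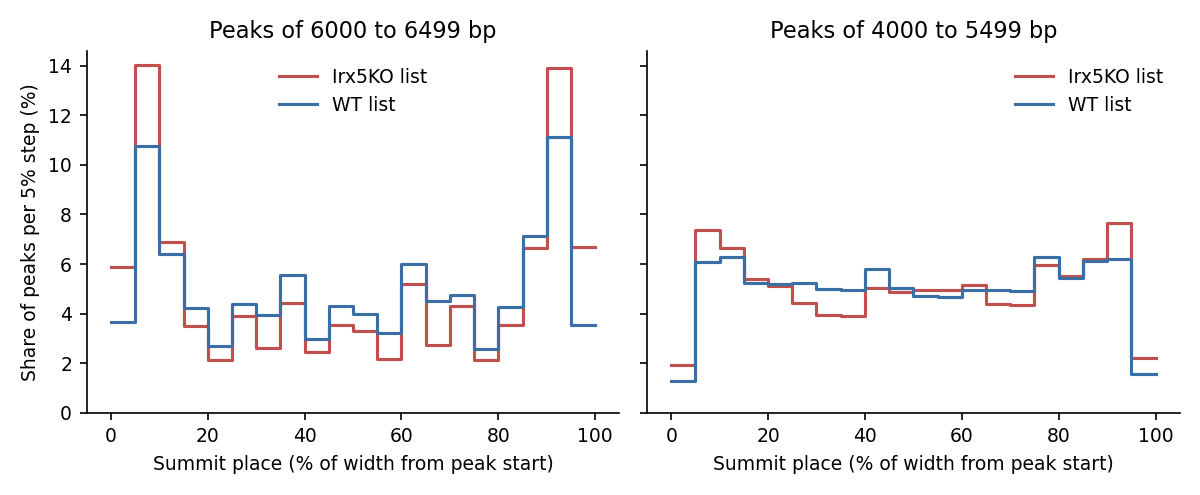
Place of the summit within the peak, as a percentage of the width from the peak start in steps of 5%, for 6 kb peaks (left) and peaks of 4 to 5.5 kb (right) in both lists. In 6 kb peaks the step from 5% to 10% holds 14.0% of Irx5KO and 10.8% of WT summits, and that from 90% to 95% holds 13.9% and 11.1%.

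Side by side, the share of 6 kb peaks with the summit at an end was 40.4% in the Irx5KO list and 29.1% in the WT list, and that of peaks of 4 to 5.5 kb 19.15% and 15.1%. With 1 list per genotype these values carry no test, and genotype cannot be told apart from any other difference between the libraries. In the 5587 pairs of 6 kb peaks, both summits lay in the outermost 10% of the same end in 1256 pairs and of opposite ends in 158. The summit was at an end in Irx5KO only in 919 pairs and in WT only in 268. Summits of a pair were within 100 bp of each other in 50.8% of pairs, and in 51.8% of the pairs of 4 to 5.5 kb. The widths below and above the dip between both maxima gave like shares, with 39.5% and 41.5% in Irx5KO and 28.8% and 29.4% in WT.

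The score, the authors' own value per peak, placed most 6 kb peaks in the upper ranks of their list. The highest 10% of autosomal peaks held 85.2% (84.3 to 86.0) of them in Irx5KO and 88.7% (88.0 to 89.5) in WT, where the share over all peaks is 10% by construction. Of peaks of 4 to 5.5 kb 52.5% and 56.1% were in that range. Against peaks of 7 to 8.5 kb, with 83.3% and 86.3%, the difference was 1.84 points (0.119 to 3.635) and 2.43 points (0.909 to 4.03). Peaks of 6.5 to 7 kb had the larger shares of 90.8% and 91.5%, and median scores of 860 and 926. The range from the 25th to the 75th percentile spanned 637 to 824 in Irx5KO around a median of 717, or 26.1% of it, and 698 to 903 in WT around 788, or 26.0%. In the adjoining classes of the same breadth that range was 32.9% and 33.4% of the median at 5.5 to 6 kb, and 34.65% and 34.99% at 6.5 to 7 kb. Score values are not compared between the lists.

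A handful of 6 kb peaks had scores far above the rest in both lists. The highest-ranked pair lay on chromosome 2, spanning 57629271 to 57635650 in Irx5KO and 57629301 to 57635630 in WT, 261.7 kb from the nearest end of Gpd2, the gene of a mitochondrial glycerol phosphate dehydrogenase. Its score was 40980 in Irx5KO (rank 44 of the autosomal list) and 45543 in WT (rank 42), with the summit 345 and 315 bp from the peak start. The next pair was on chromosome 17, 127.8 kb from Tcte2, with scores of 14954 and 15311. A pair inside Akap6, which encodes an anchor protein of protein kinase A, scored 3186 and 2630. The pair over Speer4f1 scored 1941 and 2389, and one 106.2 kb from Tlr4, the receptor for bacterial lipopolysaccharide, 1526 and 1737.

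Chromosomes carried 1.71 to 3.41 of these peaks per Mb in the Irx5KO list and 1.71 to 3.75 in the WT list. Chromosome 11 was lowest with 208 peaks in each list, 1.71 per Mb (exact Poisson interval 1.48 to 1.95). Chromosome 3 was highest, with 545 peaks or 3.41 per Mb (3.13 to 3.71) in Irx5KO and 599 peaks or 3.75 per Mb (3.45 to 4.06) in WT. Chromosome 1 followed at 3.08 per Mb in Irx5KO (2.835 to 3.33), and chromosome 19 was next to last at 1.86 (1.53 to 2.23). Intervals of neighbours in this order overlap, whereas those of chromosomes 3 and 11 do not. Highest over lowest was 1.998 in Irx5KO and 2.196 in WT, against 2.91 and 2.88 for peaks of 4 to 5.5 kb. The 6 kb peaks outnumbered that class on 18 of 19 chromosomes in both lists. The exception was chromosome 7, which had 390 and 392 6 kb peaks and 440 and 480 peaks of 4 to 5.5 kb. Across the 19 chromosomes, the density of 6 kb peaks went down with that of coding genes, with Pearson's r of -0.57 in Irx5KO and -0.63 in WT and Spearman's rho of -0.40 and -0.50. For peaks of 4 to 5.5 kb Pearson's r was -0.16 and 0.05 and rho -0.33 and -0.35. These coefficients describe the 19 chromosomes, which share 1 list and also differ in base composition.

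**Figure D5:**
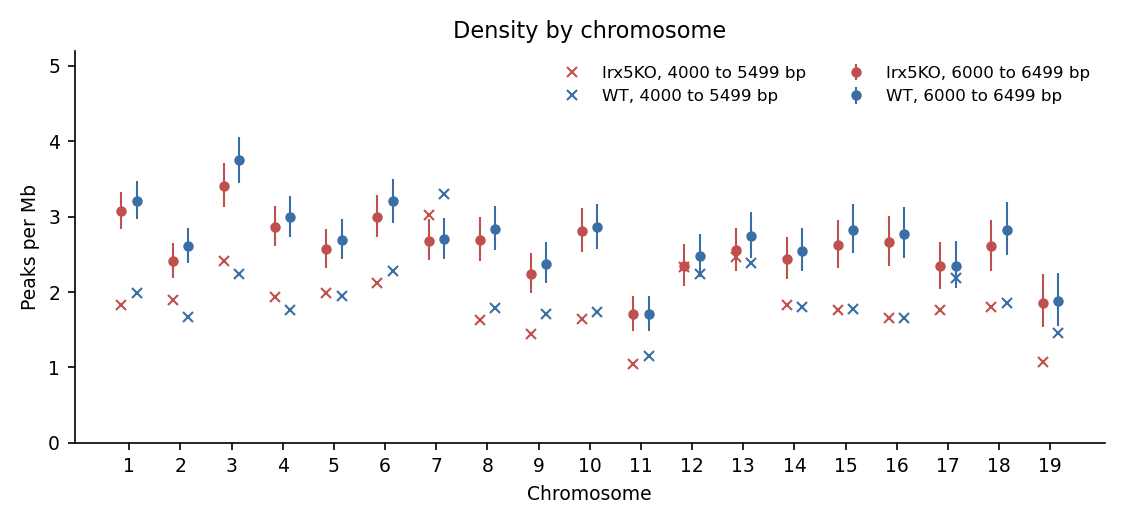
Peaks per Mb on each autosome for 6 kb peaks (points, with exact 95% Poisson intervals) and peaks of 4 to 5.5 kb (crosses) in both lists. Chromosome 3 is highest for 6 kb peaks and chromosome 11 lowest, and on chromosome 7 the crosses lie above the points.

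Most 6 kb peaks lay far from the ends of coding genes, a measure that also counts peaks deep inside long genes. The median distance from the midpoint to the nearest end of a protein-coding gene was 107.6 kb in Irx5KO and 109.8 kb in WT, against 64.15 and 62.7 kb for peaks of 4 to 5.5 kb and 49.2 and 53.1 kb over all autosomal peaks. Over 50 kb from any coding gene end were 65.8% (64.6 to 66.9) and 66.2% (65.1 to 67.3) of them, against 55.1% and 54.9% in the comparison class. A gene end, with 1000 bp on each side, was touched by 97 of the 6461 and 88 of the 6798 peaks, or 1.501% and 1.29%. The share over all autosomal peaks was 5.75% and 5.5%. Peaks of 4 to 5.5 kb touched one in 3.17% and 3.29% of cases, so the 6 kb class was different by -1.67 points (-2.275 to -1.11) and -1.99 points (-2.58 to -1.44), although a wider peak reaches further. Midpoints inside coding genes made up 20.4% in Irx5KO and 20.3% in WT, against 32.7% and 32.2% of all autosomal peaks, while coding genes take up 40.0% of the autosomal span. In peaks of 4 to 5.5 kb the share was 18.2% and 18.3%, so the 6 kb class was higher by 2.15 points (0.667 to 3.62) and 2.04 points (0.580 to 3.48). That difference fell to 0.489 points (-1.20 to 2.17) and 0.623 points (-1.03 to 2.27) when genes of all types were counted, and the intervals then held 0. It was 1.06 (-0.435 to 2.54) and 0.934 points (-0.535 to 2.39) for peaks of 5.9 to 6.4 kb, and 1.42 points (-0.439 to 3.22) in WT against peaks of 7 to 8.5 kb. Per 100 kb, coding gene spans held 0.134 6 kb peaks in Irx5KO and 0.141 in WT, and the remaining sequence 0.348 and 0.367.

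Coding genes touched by a 6 kb peak, inside the gene or within 1000 bp of either end, numbered 956 of 20661 in Irx5KO (4.63%) and 974 in WT (4.71%). Of these, 846 were touched in both lists, and their median length was 178.9 kb against 17.5 kb over all coding genes. The genes with the most midpoints inside were among the longest in the genome. Agbl4, a carboxypeptidase gene, held 9 in Irx5KO and 8 in WT over 1267 kb. Naaladl2 held 8 and 9, and Pcdh15, whose protocadherin forms tip links in the inner ear, 8 and 9. Gpc5, which encodes a heparan sulphate proteoglycan, and Sgcz, a sarcoglycan gene, each held 8 in both lists. Cdh12, a cadherin gene, held 7 and 8, and Astn2, an astrotactin gene of neurons, 7 and 7. Astn2 had 0.684 per 100 kb in both lists and Pcdh15 0.515 and 0.579, above the 0.134 and 0.141 over all coding gene spans, but genes were picked for their counts. Gm37013, Gm38666 and Gm38667 on chromosome 18 overlap each other and shared the same 7 and 9 peaks.

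Of 24 HFSC identity genes, Lgr5, the R-spondin receptor gene of follicle stem cells, was the only one touched in either list (4.17%), beside 4.63% and 4.71% of all coding genes. The peak lay inside Lgr5, from 115535821 to 115542220 of chromosome 10 in Irx5KO and from 115535831 to the same end in WT. It was 6400 and 6390 bp wide, 31.0 kb from the nearest gene end, with the summit 645 bp from the start in both lists and ranks of 2347 and 7667. None of 6 Iroquois genes, Irx5 included, and none of 16 genes of HFSC rest and activation signals, such as Fgf18, Bmp4, Wnt10b and Shh, was touched. Of 27 genes of homologous recombination and Fanconi repair 3 were touched in Irx5KO (11.1%) and 2 in WT (7.41%). With counts of 3 and 2, and a median gene length of 52.4 kb against 17.5 kb, no difference from the background is drawn. Fancl, which encodes the ubiquitin ligase of the Fanconi core complex, held a peak of 6300 bp in Irx5KO and 6350 bp in WT. Rbbp8, the gene of the resection factor CtIP, held the identical peak of 6060 bp in both lists. Fancc, named after its values were seen, held one of 6100 bp in Irx5KO, whose WT match overlapped it reciprocally by 84.1% and was outside the width class.

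Families of genes with a common symbol are given beside the 4.63% and 4.71% of all coding genes that were touched, and beside their lengths. The contactin genes (Cntn), which encode adhesion proteins of neurons, were touched in 8 of 13 cases in both lists, by 25 and 22 distinct peaks, with a median length of 401.3 kb. Genes of UDP-glucuronosyltransferases (Ugt) were touched in 9 of 22 cases, but by 3 distinct peaks, as several of these genes overlap each other. Protocadherin genes (Pcdh) were touched in 15 and 16 of 67, by 11 and 14 peaks. Pcdh15 alone, 1554 kb long, held 8 and 9 of these peaks, and the other touched Pcdh genes shared the few that remained. Cytochrome P450 genes (Cyp) were touched in 12 and 11 of 101, and zinc finger genes (Zfp) in 15 and 20 of 391. Of the vomeronasal receptor genes, 6 and 4 of 230 Vmn1r genes and 9 and 16 of 122 Vmn2r genes were touched. Olfactory receptor genes (Olfr), with a median length of 0.950 kb, were touched in 7 of 1104 in both lists, or 0.634%. Serpin genes were touched in 2 and 3 of 62, and of 111 Krt genes, which encode the keratins of epithelia and hair, none was. Median lengths were 29.0 kb for Ugt, 86.1 kb for Pcdh, 21.6 kb for Cyp and 18.0 kb for Zfp genes. For Vmn1r, Vmn2r, Serpin and Krt genes they were 0.924, 24.6, 11.1 and 1.65 kb. Whether these shares exceed what gene length gives was not tested.

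Gene ends lay inside the 6 kb peaks of both lists at 9 coding genes. The whole of Speer4f1, from 17476122 to 17480936 on chromosome 5, lay within peaks of 6290 bp in Irx5KO and 6350 bp in WT. At the other 8 genes a single end was inside, and it was the lower end at Lsm8, at Tmem72, which encodes a transmembrane protein, and at Gm7102 and Gm8600. The upper end was inside at Olfr851, F830016B08Rik, Gm10662 and Gm16506. Widths at these genes ran from 6030 to 6470 bp.

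Members of the class were spaced at a median of 88.8 kb from each other in Irx5KO and 81.9 kb in WT. Another 6 kb peak lay within 50 kb, midpoint to midpoint, for 31.8% (30.7 to 33.0) and 34.0% (32.9 to 35.1) of them. Among peaks of 4 to 5.5 kb, fewer in number, 33.2% and 34.1% had another of their class as near. The difference of -1.36 points (-3.12 to 0.398) in Irx5KO and -0.122 points (-1.87 to 1.62) in WT had intervals that held 0. It depended on the distance and the class, with 8.68 and 10.35 points at 200 kb, 14.3 and 18.0 points against the less numerous peaks of 7 to 8.5 kb, and -2.85 and -1.86 points for peaks of 5.9 to 6.4 kb. Any peak of at least 4000 bp lay within 50 kb of 62.6% (61.45 to 63.8) and 65.4% (64.3 to 66.5) of 6 kb peaks, against 69.8% and 71.7% of the other class. That difference between the classes was not tested, but their intervals do not overlap.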

How the data were processed

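ATAC-seq libraries of 4 samples were compared through 2 deposited peak lists, 1 per genotype, that the labels assign to both replicates. Per the labels sequencing was paired-end at an equal stated read number per sample, and the depth behind a single peak is unknown. The submitters' processing notes name FastQC, cutadapt 2.9, Bowtie2, deepTools 3.4.2, Genrich 0.6, ChIPseeker 1.24.0 and build mm10. The sources used here do not state settings, the treatment of reads that map to many places, or any shift for the Tn5 cut. The score in column 5 of the deposited lists is the authors' own and was used for ranks within a list. Positions and summit offsets were used as deposited, and columns 7, 8 and 9 were 0 throughout.

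Peaks of 6 to 6.5 kb were compared with those of 4 to 5.5 kb of the same list by shares, with Wilson and Newcombe intervals. The last listed peak end stood for chromosome length. Gene spans and promoters came from RefSeq GRCm38.p6, with 20661 autosomal coding genes. The peaks, gene lists and comparisons were chosen with earlier results of these data known. Named genes held the most midpoints, had an end inside paired peaks, belonged to a gene list, or lay nearest to the 5 best-ranked pairs. Genes of the sequence families and the other promoters were chosen after their values were seen. The code was tested on simulated lists. Alternatives changed the width limits, comparison class, overlap, tolerance, windows, gene types and score filter. Python 3.11.15, numpy 2.4.6, pandas 2.3.3, scipy 1.17.1 and matplotlib 3.10.9 were used.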

Additional observations from a re-analysis of the deposited data

How the results depend on the processing

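Of 86 alternatives, 73 kept the call, or stayed within 1.5 times the main value where a count or ratio was given. They also kept the direction, except the WT spacing difference in the upper 50% by score. It went from -0.122 to 0.496 points, and both intervals held 0. That score filter kept 6459 of the 6461 peaks in Irx5KO and all 6798 in WT, so it hardly changed the 6 kb class and could show little. The difference in gene body share held 0 in its interval for widths of 5.9 to 6.4 kb (1.06 points in Irx5KO, 0.934 in WT), with genes of all types (0.489 and 0.623) and, in WT, against peaks of 7 to 8.5 kb (1.42). The reciprocal overlap difference was 0.0 in Irx5KO and 0.0 in WT with an overlap of 1 bp, where all peaks of both classes overlapped a peak of the other list. The spacing difference left out 0 against peaks of 7 to 8.5 kb (14.31 and 18.01 points), at 200 kb (8.679 and 10.35) and for widths of 5.9 to 6.4 kb (-2.848 and -1.863), with the sign of the main value only in the last. A summit within 500 bp of an edge, added after seeing the data, gave 10.36 points in Irx5KO and 4.525 in WT. The 11 genes in sequence families were also counted with at least 10 or 50 shared strings, likewise chosen after seeing the data, with the same count. No paired analysis was possible because each list belongs to both replicates of a genotype, and for that reason no replicate could be left out. The GC content of the peaks and the sequence at their edges were not run, since no genome was used here.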

Other observations

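Peaks of 6 to 6.5 kb were also listed outside the autosomes. Chromosome X held 576 in Irx5KO, or 3.37 per Mb (exact Poisson interval 3.10 to 3.66), and 610 in WT, or 3.57 (3.29 to 3.865). Their summit lay in the outermost 10% in 39.9% and 29.3% of cases, beside 40.4% and 29.1% on the autosomes. Unlike most autosomes, chromosome X held more peaks of 4 to 5.5 kb, 627 and 624. Chromosome Y held 125 6 kb peaks in Irx5KO and 159 in WT, or 1.38 (1.145 to 1.64) and 1.75 (1.49 to 2.04) per Mb. Another 19 and 8 lay on other sequences of the build.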
